A study of Mus musculus with 9 samples.

Results

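The effect of losing 1 copy of Gap43 was examined across the transcripts of layer IV of the mouse barrel cortex. The 3 arrays titled as Gap43 heterozygotes (HZ) were compared with the 3 titled as wild type (WT), which makes 6 of the 9 arrays of the series, and all 22626 probe sets that are not array controls were taken. The other 3 arrays came from knockouts (KO) and entered the fit only to share its estimate of the spread. All mice were C57BL/6 at postnatal day 5, HZ mice carried 1 disrupted Gap43 allele and WT mice none, no treatment is given in the labels, and each array came from 1 mouse, so that n = 3 per genotype throughout. The labels do not say which part of the gene was disrupted, whether mice shared a litter, or how much of the barrel field was cut out with the laser. Before labelling, the RNA went through an amplification with a repeated cDNA cycle. Because the dissected layer is a mixture of cells, fewer cells of a type and less RNA per cell cannot be told apart in any value below.

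Gap43 encodes GAP-43, a phosphoprotein on the inner face of the growth cone membrane that binds calmodulin, is phosphorylated by protein kinase C and acts on the actin cytoskeleton of growing axons. In the barrel cortex, axons from the thalamus sort by whisker during the first postnatal days, and layer IV neurons then gather around them into barrels. GAP-43 is abundant in these axons and in young cortical neurons while the map forms. By its title, the series is about synapse and barrel map genes in mice with less or no GAP-43.

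The arrays had been scaled by the authors to a common trimmed mean of 500.2. Their median signal was 162 to 173 in WT and 168 to 186 in HZ, with HZ 1 and HZ 3 above every WT array. The ratio of 3' to 5' signal of the actin and Gapdh control probe sets, which rises when transcripts are truncated before or during amplification, was 10.1 to 15.5 in WT, 9.94 and 10.1 in HZ 3 and HZ 1, and 26.4 in HZ 2, which stood apart on this measure. Values without HZ 2 are given beside named genes whose log2 change then turned sign or moved by over 1.5 times, and beside other values that rest on it. Of the layer IV markers fixed for this work, Rorb, Rora and Cux1 were all among the brighter 60% of probe sets. Rorb, the transcription factor of layer IV neurons, had a signal of 530 ± 65.2 in WT and 609 ± 95.5 in HZ (SD, n = 3). The summed signal of the 3 layer IV markers was 3131 to 3192 in WT and 3611 to 4033 in HZ, without overlap. Cux1 was higher in HZ (log2 change 0.47) and Rora lower (-0.14). The part of this difference in the results below was not tested. Cortical markers Neurod2 and Neurod6 were also bright. Of 7 thalamic or striatal markers on the array 3 were among the brighter probe sets (Prkcd, Drd2 and Penk), while the thalamic Tcf7l2, Lef1 and Gbx2 were not. The 3 red cell markers on the array and the myelin gene Mog were also among the dimmer probe sets.

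Gap43 itself differed little between HZ and WT. Its probe set gave signals of 7089, 4746 and 4294 on the WT arrays and 5015, 5039 and 4389 on the HZ arrays. WT 1 was the highest of the 6, and the 3 HZ arrays lay within the WT range. The HZ mean was 89.5% of the WT mean, a log2 change of -0.13 ± 0.24 (SE; limma adjusted p = 0.928). As a fold this was 0.916, and its 95% interval ran from 0.631 to 1.33. A 2-sided exact permutation test gave p = 0.9; with 3 arrays a side it cannot go below 0.1. The interval does not reach 50% of WT (a log2 change of -1). That is the level of a signal in proportion to gene copies only if the disrupted allele gives no signal. The interval did not reach 50% under any of the 20 alternative settings, the lowest bound being -0.87 without WT 3. Where the probe set lies relative to the disrupted part of the gene is not known here, so signal from the disrupted allele cannot be told apart from that of the intact one. The value turned to 0.09 without WT 1. In KO the same probe set gave 979, 1930 and 1299, below every HZ and WT array but not at 0. With this remaining signal counted, the level expected of 1 intact copy lies above 50%. The interval was not set against that level, so a drop in proportion to intact copies was not tested.

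**Figure D1:**
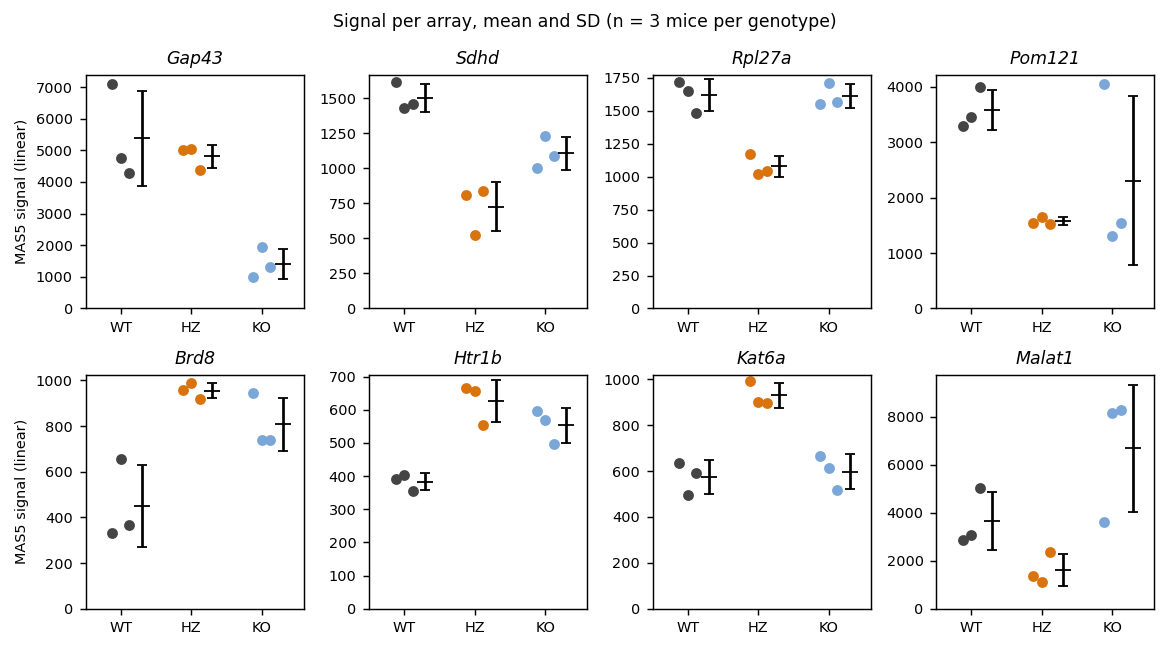
MAS5 signal (linear, vertical axes) on each array for Gap43 and 7 genes described in the text, by genotype, with 3 arrays per genotype as points and the mean and SD as bars. Gap43 overlaps between WT and HZ and is lowest in KO, whereas Sdhd, Rpl27a, Pom121 and Malat1 are lower and Brd8, Htr1b and Kat6a higher on every HZ array than on every WT array.

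Across all 22626 probe sets, 0 passed an adjusted p of 0.05 between HZ and WT with limma (0% called), and the smallest adjusted p was 0.559. An unadjusted p below 0.05 was reached by 1358 probe sets, or 6%, where chance alone gives 1131.3 on average. Of these 904 were higher in HZ (4% of all tested) and 454 lower (2.01%). The excess of higher ones depended on how arrays were scaled: with all arrays set to 1 median it turned to 471 higher and 967 lower, and with quantile normalization it was 638 against 583. Most transcripts lay close to WT, with 89.3% of probe sets within 0.5 on the log2 scale and 98.9% within 1. Of the 252 probe sets that differed by at least 2-fold, 192 belonged to the dimmer 40% of the array. The median log2 change was 0.03 in the brighter probe sets and 0.09 in the dimmer ones. The groups were similar in spread, with a median SD between arrays of 0.21 in WT and 0.20 in HZ on the log2 scale over the brighter probe sets.

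**Figure D2:**
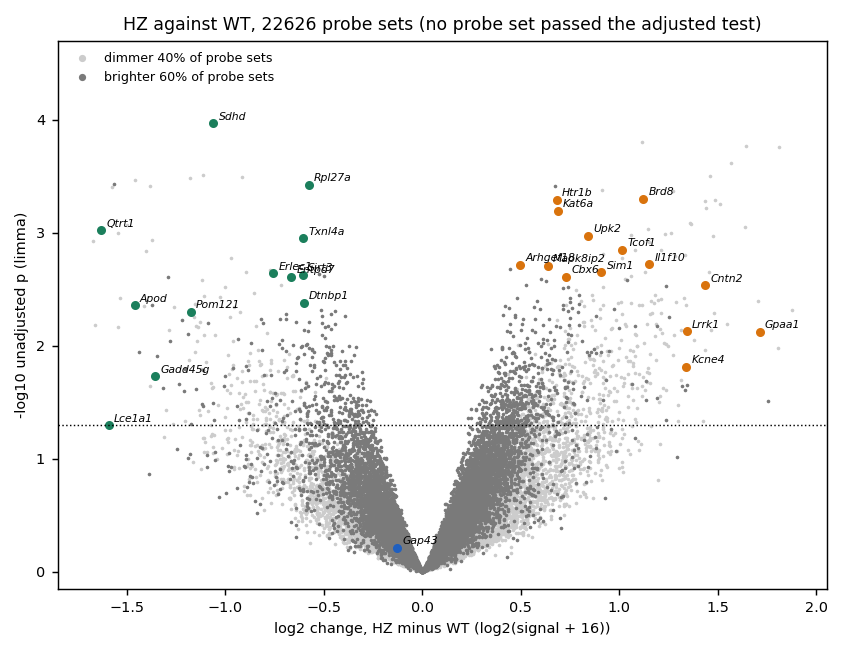
Log2 change of HZ minus WT (horizontal axis) against the unadjusted limma significance on a -log10 scale (vertical axis) for 22626 probe sets, dark grey for the brighter 60% and light grey for the rest, with a dotted line at the unadjusted threshold of 0.05. Named genes are those of smallest p or largest size on each side, and Gap43 (blue) lies near the origin. No probe set passed the adjusted test.

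Genes are represented from here on by the brightest probe set with 1 gene symbol, among the brighter 60% of probe sets, which left 8503 genes. Of these, 56.5% were above 0 in HZ with a median log2 change of 0.04, 5.88% had an unadjusted p below 0.05 (3.85% higher and 2.03% lower), and in 13.4% the HZ and WT arrays did not overlap. None of the genes named below passed over all probe sets, and their adjusted p-values were 0.559 or more with limma. They are described by their values. Setting all arrays to 1 median moved the median of all probe sets from 0.05 to -0.03, and several gene list medians near 0 turned sign with it. The 26 genes chosen by p or by size kept their direction under all 20 alternative settings, but this was largely fixed by their choice. In all 26 the HZ and WT arrays did not overlap, so leaving out 1 array could not turn the sign. Several other settings leave the log2 change as it is.

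The higher genes of smallest p included Brd8, Htr1b and Kat6a. Brd8, a bromodomain subunit of a histone acetyltransferase complex, gave 330, 657 and 366 on the WT arrays and 956, 988 and 920 on the HZ arrays. The HZ arrays were alike and all above the highest WT array, WT 2. The log2 change was 1.12 ± 0.23 (SE, limma adjusted p = 0.559), and the gene passed without WT 2 (1.42, limma adjusted p = 0.0439). Kat6a, a histone acetyltransferase, gave 636, 495 and 591 in WT and 994, 900 and 896 in HZ. Its log2 change was 0.69 ± 0.14 against WT, while KO lay at 664, 613 and 515, of which only KO 1 was above the WT range. Cbx6, a chromobox protein of Polycomb complexes, gave 829, 758 and 795 in WT and 1054, 1841 and 1202 in HZ, and its log2 change of 0.73 was 0.50 without HZ 2.

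Htr1b encodes a serotonin receptor that thalamic axons carry while they invade layer IV. It gave 390, 405 and 355 in WT and 666, 658 and 553 in HZ, so that every HZ array exceeded every WT array. The log2 change was 0.68 ± 0.14 (SE, limma adjusted p = 0.559) and 0.64 without HZ 2. The KO arrays lay at 596, 569 and 495, a log2 change of 0.51 against the same WT arrays.

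Arhgef18 and Mapk8ip2 were also among the 10 higher genes of smallest p. Arhgef18 gave 467, 508 and 522 in WT and a narrow 716, 704 and 706 in HZ. Mapk8ip2, a scaffold of the JNK pathway in neurons, was 0.64 ± 0.16 higher (log2, SE), and its other probe sets also lay above 0 (0.05 and 0.44). Tcof1, the nucleolar protein treacle, was 1.01 ± 0.24 higher from a dim WT signal of 70.8 ± 10.4 (SD, n = 3), with 1 of its 2 other probe sets on the other side (-0.12). It too was kept only through HZ and KO.

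Some higher genes are best known from other tissues and were dim. Upk2, a uroplakin of the bladder lining, was 218 ± 40.9 in WT and 402 ± 74.7 in HZ (SD, n = 3). Il1f10, a cytokine of the interleukin 1 family, was 138 ± 42.3 and 317 ± 39.4, and Sim1, a transcription factor of the hypothalamus, 148 ± 28.7 and 291 ± 53.5. The choroid plexus marker Ttr was near background in both groups, at 5.07 ± 0.484 in WT and 33.8 ± 7.6 in HZ. The summed signal of the 4 choroid and ependymal markers was 284 to 364 in WT and 446 to 495 in HZ, with 1 of the 4 among the brighter probe sets, and its part in these results was not tested.

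The 4 largest higher values without overlap were those of Gpaa1, Cntn2, Lrrk1 and Kcne4. Gpaa1, a subunit of the enzyme that attaches GPI anchors, gave 223, 1352 and 252 in WT and 1434, 1425 and 1456 in HZ. WT 2 was at the HZ level and the other WT arrays were far below it, so that the log2 change was 1.71 ± 0.52 with all arrays and 2.52 without WT 2 (limma adjusted p = 0.000381). Its other probe sets lay at 0.09 and -0.09. Cntn2, the axonal adhesion molecule TAG-1, was 65.5 ± 52.2 in WT and 180 ± 28.9 in HZ. Lrrk1, a kinase, was 64.2 ± 36.1 and 173 ± 44.5, with 1 of 2 other probe sets on the other side (-0.29). Kcne4, an accessory subunit of potassium channels, was 63.3 ± 53.5 and 157 ± 29.6 (SD, n = 3). The WT means of Cntn2, Lrrk1 and Kcne4 lay below 121, the lowest mean over 9 arrays that was kept, so these genes were kept only through the genotypes where they are high, and their place among the largest is partly set by that choice.

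Genes lower in HZ were led by Sdhd, the membrane anchor of succinate dehydrogenase in respiratory complex II. It gave 1616, 1428 and 1462 in WT and 811, 524 and 840 in HZ, and KO lay between them at 1000, 1233 and 1088. The log2 change in HZ was -1.06 ± 0.18 (SE, limma adjusted p = 0.559) and -0.85 without HZ 2, the lowest array. The other Sdhd probe set lay at -0.50. Sirt3, a deacetylase of mitochondria, was 1443, 1792 and 1623 in WT and 1221, 899 and 1064 in HZ, a log2 change of -0.61 ± 0.15.

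Rpl27a, Txnl4a and Qtrt1 were also among the 10 lower genes of smallest p. Rpl27a, a protein of the large ribosomal subunit, gave 1715, 1654 and 1482 in WT and 1170, 1018 and 1045 in HZ. The log2 change was -0.58 ± 0.11, whereas KO stood at 1549, 1714 and 1569, within the WT range. A dim second Rpl27a probe set lay at 0.29. Txnl4a, a small protein of the spliceosome, was 1831, 1690 and 1649 in WT and 1224, 997 and 1167 in HZ, a log2 change of -0.61 ± 0.14 with its other probe set at -0.11. Qtrt1, which exchanges a base in transfer RNAs, gave 133, 265 and 294 in WT and 41.8, 43.3 and 112 in HZ, a log2 change of -1.63 ± 0.36 (SE). In KO it was 211, 237 and 257.

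Pom121, an anchor of the nuclear pore, gave 3292, 3456 and 3993 in WT and 1542, 1652 and 1519 in HZ, a log2 change of -1.18 ± 0.33. In KO it was 4058 on KO 1 and 1299 and 1549 on the other arrays, so that its values over the 9 arrays fell at 2 levels. Its other, dimmer probe set lay at 0.44 in HZ.

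The remaining lower genes chosen by p or by size were Dtnbp1, Apod, Erlec1, Entpd7, Gadd45g and Lce1a1. Dtnbp1 encodes dysbindin, which acts in vesicle transport and at synapses. It was 1200 ± 118 in WT and 791 ± 136 in HZ (SD, n = 3). Apod, the lipid carrier apolipoprotein D, was 259 ± 111 and 85.4 ± 42.2. Erlec1, a lectin of the endoplasmic reticulum, was -0.76 ± 0.19 on its brightest probe set (log2, SE) but 0.28 on its other. Entpd7, a nucleotidase, was -0.67 ± 0.17, with 2 of 3 other probe sets on the other side (0.63 and 0.36). Gadd45g, a stress response gene, was 269 ± 64.5 in WT and 94.1 ± 13.6 in HZ. Lce1a1, a gene of the skin barrier, was 211 ± 63.8 and 79.0 ± 74.5, and its log2 change of -1.59 was -0.88 without HZ 2. The HZ means of Qtrt1, Apod, Gadd45g and Lce1a1 lay below 121, so these genes were kept through the other genotypes, where they are higher.

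**Figure D3:**
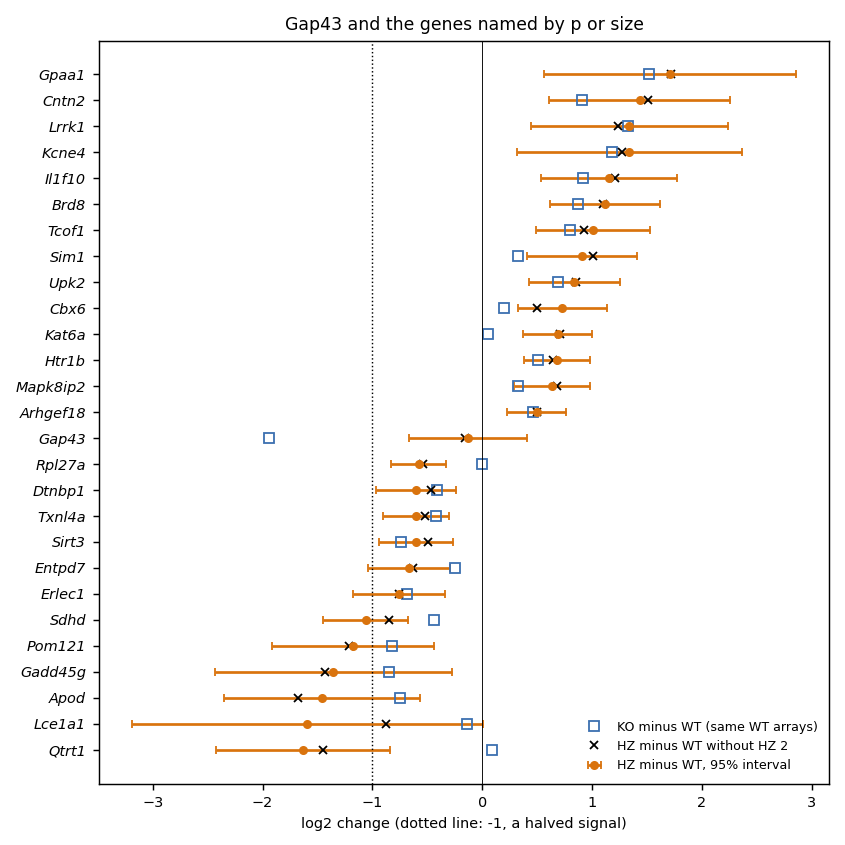
Log2 change (horizontal axis) of Gap43 and the 26 genes named by p or by size, with HZ minus WT and its 95% interval in orange, the same without HZ 2 as crosses, and KO minus WT as open squares. Gap43 in HZ spans 0 and stays right of the dotted line at -1, while Kat6a and Rpl27a stand away from 0 in HZ and near 0 in KO. HZ and KO were compared with the same WT arrays.

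Proteins that resemble GAP-43 or act with it did not differ past the threshold. Of the 26 listed genes 21 were measured, 14 above 0 and 7 below, with a median log2 change of 0.09 beside 0.04 over all genes. An unadjusted p below 0.05 was reached by 0, beside 5.88% of all genes. Basp1, the closest relative of GAP-43 in function, was 12509 ± 2433 in WT and 13731 ± 1152 in HZ (SD, n = 3). Marcks was 6983 ± 830 and 7718 ± 872 and Marcksl1 9934 ± 1398 and 10769 ± 1892; both bind calmodulin and membrane lipids as GAP-43 does. Their log2 changes of 0.14 and 0.11 were 0.06 and 0.02 without HZ 2. Of 5 other Marcks probe sets, 3 were also above 0. Nrgn, neurogranin, the calmodulin-binding protein of dendrites, gave a log2 change of 0.47 ± 0.32, and Pcp4, another calmodulin-binding protein, -0.34 ± 0.55, or -0.52 without HZ 2. For all of these the HZ and WT arrays overlapped.

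Kinases and phosphatases that act on GAP-43 were also spread around WT, with mixed signs. The protein kinase C genes lay between -0.29 (Prkcz) and 0.17 (Prkca), with Prkcb at 0.06, Prkcd at 0.07 and Prkce at 0.12. Without HZ 2 Prkcb and Prkce turned to -0.11 and -0.05, and Prkcd was 0.12. The other probe sets of Prkcz, Prkcb and Prkce lay on the other side, at 0.17, -0.03 and -0.05. The calcineurin subunits gave 0.32 ± 0.15 for Ppp3r1, whose arrays did not overlap, -0.09 for Ppp3ca and -0.38 for Ppp3cb. Without HZ 2 Ppp3ca was -0.15 and Ppp3cb -0.18. The other Ppp3cb probe set, of similar brightness, lay at 0.38, and the 2 other Ppp3ca probe sets at -0.02 and 0.13. Casein kinase 2 subunits were 0.25 (Csnk2a1, no overlap) and 0.17 (Csnk2a2). Of the other probe sets, 4 of 5 for Csnk2a1 and 5 of 6 for Csnk2a2 were also above 0. The G protein subunit Gnao1, which GAP-43 binds, was at 0.09 and Gnai2 at 0.17. The cytoskeletal partners Actb (-0.11), Sptbn1 (-0.06) and Cap1 (-0.08) and the endosomal Rabep1 (0.06) were also close to WT on their brightest probe sets. Other probe sets differed, lying at -0.74, -0.19 and 0.21 for Sptbn1 and at 0.36, -0.09 and 0.04 for Rabep1. The other Cap1 probe set, a dim one, lay at 0.32. Without HZ 2 Cap1 turned to 0.11, Gnai2 was 0.02, Actb -0.07 and Rabep1 0.15.

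Other growth cone and neurite outgrowth genes lay above 0 in 16 of 43 cases and below in 27 (median -0.03). This was 37.2% above 0, beside 56.5% above 0 and a median of 0.04 over all genes. At an unadjusted p below 0.05 3 were higher and 0 lower, or 6.98%, near the 5.88% of all genes. Besides Cntn2, Dpysl5, of the collapsin response mediator family, was 520 ± 72.4 in WT and 699 ± 91.5 in HZ (SD, n = 3), and its arrays did not overlap. Axon guidance ligands and receptors lay above 0 in 26 of 38 cases (median 0.09). At an unadjusted p below 0.05 1 was higher and 2 were lower, or 7.89% beside 5.88% of all genes. The median was 0.0028 without HZ 2. Both lower ones were ephrin receptors: Epha3 at 317 ± 74.0 in WT and 187 ± 19.3 in HZ, and Epha4 at 1086 ± 106 and 736 ± 131. Their arrays did not overlap, but 1 of 2 other Epha3 probe sets and the other Epha4 probe set lay above 0.

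Barrel map genes were spread around WT. Of 28 measured, 17 were above 0 and 11 below, the median log2 change was 0.03, and 1 was higher and 2 lower at an unadjusted p below 0.05, or 10.7% beside 5.88% of all genes. The higher one was Htr1b and the lower ones Epha4 and Prkar1a, a regulatory subunit of cyclic AMP-dependent protein kinase, at -0.35 ± 0.12. Of 5 measured serotonin genes 3 were above 0 (median 0.16), with Htr5a, a second receptor, at 106 ± 37.4 in WT and 156 ± 4.85 in HZ (SD, n = 3) without overlap, kept only through HZ and KO. The list was chosen with the Htr1b value of these arrays known. Cortical layer and neuron transcription factors had 20 of 29 above 0 and a median of 0.10. At an unadjusted p below 0.05 there were 0, beside 5.88% of all genes. Cux1, of upper layer neurons, was 1586 ± 56.1 in WT and 2225 ± 330 in HZ without overlap, although 2 of its 5 other probe sets lay below 0. Eomes was 0.42 ± 0.21. The median of this list was 0.0061 without HZ 2 and 0.01 without WT 2.

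Genes of synapses gave medians of 0.08 for glutamate receptors and postsynaptic proteins (12 of 17 above 0) and 0.10 for presynaptic proteins (18 of 26 above 0). Without HZ 2 these medians were 0.01 and 0.04. Dlg4, the postsynaptic scaffold PSD-95, had the largest value, 217 ± 108 in WT and 421 ± 55.5 in HZ (SD, n = 3) without overlap, with 1 of 2 other probe sets on the other side. Nlgn2, an adhesion protein of inhibitory synapses, was 0.33 ± 0.20, and 0.17 without HZ 2. Among vesicle proteins Syn2 was 432 ± 30.7 and 576 ± 45.9, with its other probe set on the other side, and Sv2a 1189 ± 242 and 883 ± 143. Interneuron and GABA synapse genes were split evenly, 10 above and 10 below 0 (median -0.0062), with the calcium-binding Calb1 at -0.79 ± 0.38 (its other probe set was on the other side) and the receptor subunit Gabrg1 at 0.31 ± 0.16. No member of the glutamate, presynaptic or GABA lists passed over all genes. At an unadjusted p below 0.05 there were 1 higher postsynaptic gene, 1 higher and 1 lower presynaptic gene and 0 GABA genes. These were 5.88% of the postsynaptic and 7.69% of the presynaptic genes, beside 5.88% of all genes.

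Excitability, adhesion and trophic signalling genes were also near WT. Ion channels had 19 of 34 above 0 (median 0.0092). At an unadjusted p below 0.05 2 were higher and 1 lower, or 8.82% beside 5.88% of all genes. Cacna2d1, a calcium channel subunit, was 787 ± 88.1 in WT and 547 ± 59.5 in HZ, and Kcnc1, a potassium channel of fast-spiking neurons, 416 ± 57.4 and 593 ± 70.5 (SD, n = 3), neither with overlap. Cadherins and catenins had 15 of 21 above 0 (median 0.04) and 0 at an unadjusted p below 0.05, beside 5.88% of all genes. Ctnnd2 was at 0.18 ± 0.12 and Cdh2 at 0.29 ± 0.24, whose other probe set was on the other side. Neurotrophins and their receptors had 12 of 19 above 0 (median 0.06). At an unadjusted p below 0.05 0 were higher and 1 lower, or 5.26%, near the 5.88% of all genes. Ptn, the neurite-promoting factor pleiotrophin, was 6421 ± 831 in WT and 4289 ± 890 in HZ without overlap, a log2 change of -0.59 that was -0.45 without HZ 2. The receptor Ret was 0.50 ± 0.23. Immediate early genes had 14 of 24 above 0 (median 0.10), with 1 higher and 2 lower at an unadjusted p below 0.05, or 12.5% beside 5.88% of all genes. Gadd45b was 0.95 ± 0.31 and was kept only through HZ and KO, whereas the related Gadd45g lay on the lower side.

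Genes of mitochondria, ribosomes and the proteasome lay mostly below WT, each by a small amount. Mitochondrial ribosomal proteins, which translate the proteins encoded in mitochondrial DNA, lay below 0 in 62 of 73 cases, with a median log2 change of -0.16, beside 43.5% below 0 and a median of 0.04 over all genes. Their members at an unadjusted p below 0.05 were 2, or 2.74% beside 5.88% of all genes, both lower. Mrps7 was 891 ± 151 in WT and 631 ± 53.7 in HZ, and Mrps9 973 ± 305 and 670 ± 87.7 (SD, n = 3), neither with overlap, although 1 of 3 other Mrps9 probe sets lay above 0. Without overlap 13 members were lower, or 17.8% beside 4.33% of all genes, and 1 was higher. Taking each array's median deviation over the list, WT lay at 0.06, 0.12 and 0.05 and HZ at -0.01, -0.20 and -0.03, with HZ 2 far the lowest. Without HZ 2 the median was -0.08.

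Of 45 cytosolic ribosomal proteins 35 lay below 0 (median -0.11), with 0 higher and 4 lower at an unadjusted p below 0.05, or 8.89% beside 5.88% of all genes in either direction. Among them were Rpl27a and Rpl27, the latter at -0.27 ± 0.12 (log2, SE) and -0.18 without HZ 2. Without WT 2 the median was -0.04. Of 35 proteasome subunits 30 lay below 0, and the median of -0.12 was -0.04 without HZ 2. Psmd4, a ubiquitin receptor of the proteasome, was 2491 ± 113 in WT and 1854 ± 274 in HZ (SD, n = 3) without overlap, with 1 of 2 other probe sets on the other side, and Psmd8 was -0.28 ± 0.15, or -0.16 without HZ 2.

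Of 75 subunits of oxidative phosphorylation 54 lay below 0 (median -0.07). At an unadjusted p below 0.05 1 was higher and 3 were lower, or 5.33%, near the 5.88% of all genes. Besides Sdhd, Atp5b, the catalytic subunit of ATP synthase, was 6281 ± 194 in WT and 5233 ± 275 in HZ (SD, n = 3) without overlap. The median was -0.0044 without WT 2. Glycolysis and citric acid cycle enzymes had 25 of 35 below 0 and a median of -0.09, led after Sdhd by Idh3b, a subunit of isocitrate dehydrogenase, at -0.45 ± 0.18. The median of these enzymes was -0.04 without WT 2. Chaperones were split evenly, 21 above and 21 below 0 (median -0.01), with 0 at an unadjusted p below 0.05, beside 5.88% of all genes. Hspa5 was at -0.33 ± 0.16 and Dnajb1 at -0.27 ± 0.14, with its other probe set at 0.0015. Relative to the median of all genes, 8 lists stayed below it under all 20 alternatives: both ribosomal lists, oxidative phosphorylation, metabolic enzymes, the proteasome, chaperones, growth cone genes and astrocyte markers. Only 1 list, the serotonin genes, stayed above it. Several of the 20 could not move these values: some leave every log2 change as it is, and setting all arrays to 1 median shifts all genes alike. The ratio of 3' to 5' signal was highest in HZ 2 and, within WT, in WT 2. The array medians of these arrays lay on opposite sides, at 0.17 on WT 2 and -0.12 on HZ 2 for cytosolic ribosomal proteins. Leaving out HZ 2 left oxidative phosphorylation at -0.07, whereas without WT 1 it was -0.13. With the ratio as a term in the fit, the medians were -0.11 for mitochondrial and -0.11 for cytosolic ribosomal proteins, -0.07 for oxidative phosphorylation, -0.08 for metabolic enzymes and -0.10 for the proteasome, and its part in them was not tested further.

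**Figure D4:**
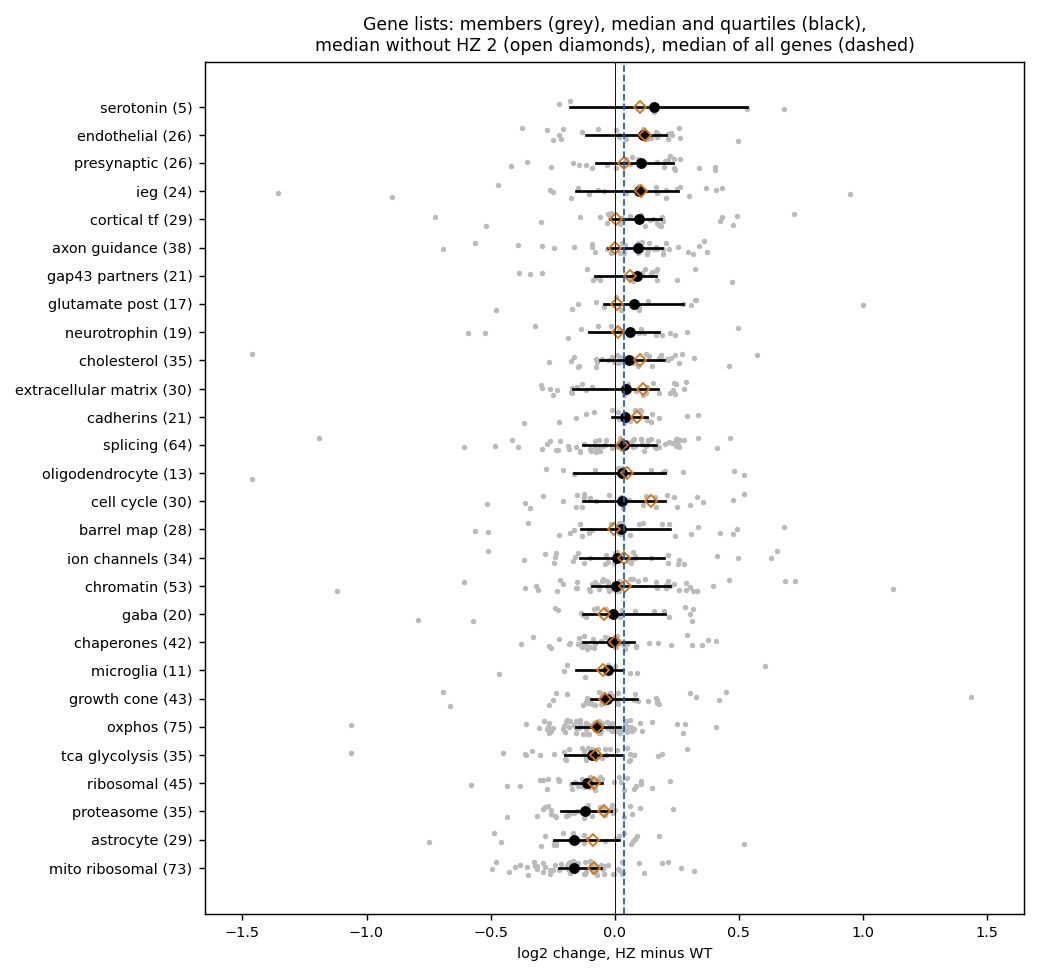
Log2 change of HZ minus WT (horizontal axis) for the measured members of 28 gene lists (grey points, number of genes in brackets), with the median and quartiles in black, the median without HZ 2 as open diamonds and the median of 8503 genes as a dashed line. The medians run from -0.16 for mitochondrial ribosomal proteins to 0.16 for the 5 serotonin genes, and members of each list spread far wider than the medians.

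Astrocyte markers lay below WT in 20 of 29 cases, with a median of -0.16 and 0 higher and 3 lower at an unadjusted p below 0.05, or 10.3% beside 5.88% of all genes. Glul, the glutamine synthetase of astrocytes, was 5497 ± 839 in WT and 3899 ± 289 in HZ, and Plpp3, a lipid phosphatase, 728 ± 128 and 524 ± 82.3 (SD, n = 3), neither with overlap. The summed signal of 6 defining astrocyte markers was 7085 to 8817 in WT and 6910 to 7625 in HZ, which overlap, and Slc1a2 and Gfap among them were dim. Without HZ 2 the list's median was -0.09, and without WT 1 it was -0.28.

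Markers of other cell types showed smaller or less even values. Oligodendrocyte lineage genes had 8 of 13 above 0 (median 0.03), with Apod the lowest and Olig2, a transcription factor of the lineage, at 0.48 ± 0.23. Of 11 microglia genes 4 were above 0 (median -0.03); the list's array median was 0.43 on WT 2 against -0.19 and -0.29 on the other WT arrays, and without WT 2 the median was 0.22. Cd14, a receptor of macrophages, was 0.61 ± 0.21 and Ctss, a lysosomal protease, -0.47 ± 0.26. Endothelial and mural genes had 18 of 26 above 0 (median 0.11), with 8 members whose HZ arrays lay above all WT arrays, or 30.8% beside 9.04% of all genes. The member of smallest p was Flt1, a receptor of vascular growth factor, at 0.50 ± 0.28 (1 of 2 other probe sets on the other side). The next was Abcg2, a transporter of the vessel wall, at -0.37 ± 0.22. At an unadjusted p below 0.05 there were 0, beside 5.88% of all genes. The summed signal of 5 defining endothelial markers was 1219 to 1542 in WT and 1215 to 1504 in HZ. Extracellular matrix genes had 18 of 30 above 0 (median 0.04), with Sparcl1 at -0.30 ± 0.15 and Col1a2 at 0.29 ± 0.16. Genes of cholesterol and lipids had 22 of 35 above 0 (median 0.06), led after Apod by Mvd, an enzyme of cholesterol synthesis, at 0.46 ± 0.18.

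The list of chromatin regulators had the highest share at an unadjusted p below 0.05 of the lists with more than 5 genes. This was 15.1% of 53 beside 5.88% of all genes, 6 higher and 2 lower. The list was drawn up with the values of Brd8 and Kat6a known, and those are not independent of its choice. The other higher members were Ncoa3, a nuclear receptor coactivator, at 0.73 ± 0.27, Smarca1, a chromatin remodelling ATPase, at 0.40 ± 0.15, Hdac1, a histone deacetylase, at 0.30 ± 0.13 and Smarcc1 at 0.29 ± 0.12. The lower ones were Sirt3, a deacetylase of mitochondria and not of chromatin, and the deacetylase Sirt2, at -1.12 ± 0.45. Over the whole list 29 members lay above and 24 below 0 (median 0.0060). Its array medians were -0.01, 0.0017 and 0.0023 in WT and 0.06, 0.01 and 0.04 in HZ, which do not overlap. However, the list's median lay below the 0.04 of all genes, and it was -0.081 with all arrays at 1 median. The higher HZ array medians are therefore not set apart from the shift over all genes.

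Splicing factors and nuclear RNA-binding proteins had 35 of 64 above 0 (median 0.04). At an unadjusted p below 0.05 0 were higher and 3 lower, or 4.69% beside 5.88% of all genes. Besides Txnl4a, Malat1, a long noncoding RNA of nuclear speckles, gave 2850, 3081 and 5050 in WT and 1378, 1119 and 2370 in HZ, without overlap. The log2 change was -1.19 ± 0.36, with the 4 other probe sets at -1.15, 0.12, -0.35 and 0.10, so that the probe sets were not of 1 direction. In KO its brightest probe set gave 3627, 8147 and 8286. Progenitor and cell cycle genes had 16 of 30 above 0 (median 0.03), with 2 higher at an unadjusted p below 0.05, or 6.67% beside 5.88% of all genes. The median turned to -0.07 without HZ 1 and was 0.15 without HZ 2. Nes, the intermediate filament nestin of progenitors, gave 231, 275 and 350 in WT and 415, 410 and 406 in HZ, and Ccnd1, cyclin D1, 451 ± 31.3 and 560 ± 42.1 (SD, n = 3), neither with overlap.

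The genes that flank Gap43 on chromosome 16 were near WT. Of the 20 nearest measured genes, 10 on each side, 12 were above 0, where 56.5% of all genes were. Their median was 0.09, beside 0.04 over all genes, and they ranged from -0.36 to 0.60. At an unadjusted p below 0.05 there was 1 of the 20, beside 5.88% of all genes. This was Cd80, a costimulatory protein of immune cells.

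A second probe set of the same gene offered a check of direction within the same RNA. Of 2726 genes with at least 2 brighter probe sets, the brightest and the next had the same direction in 59.5%. The share was 71.1% of the 149 genes whose brightest probe set had an unadjusted p below 0.05 and 76.9% of the 26 below 0.01. Only 16 of the 2726 genes, or 0.587%, had both at an unadjusted p below 0.05 in 1 direction, Sdhd and Malat1 among them. Of the 26 genes named by p or by size 13 had another probe set, and in 7 of them at least 1 lay on the other side. Probe sets of 1 gene share the animals and are not replicates of the genotype.

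**Figure D5:**
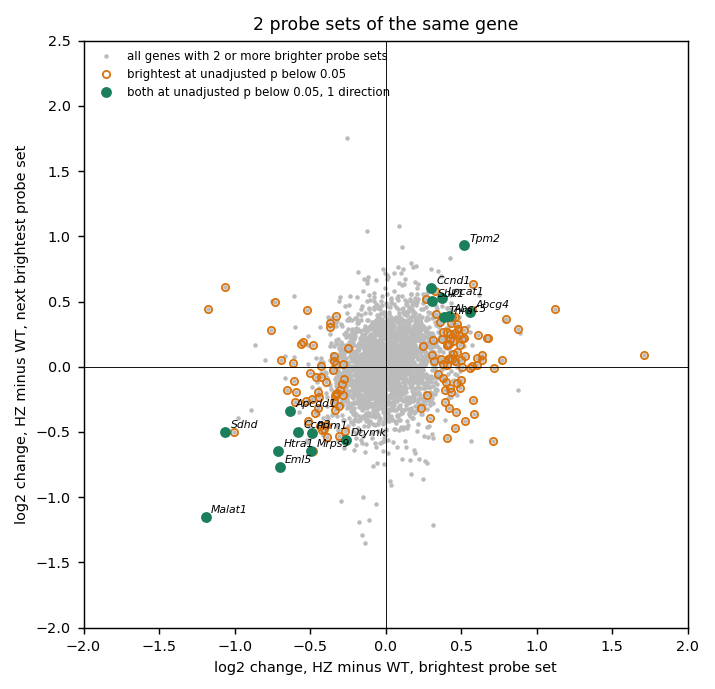
Log2 change of HZ minus WT on the brightest (horizontal axis) and the next brightest probe set (vertical axis) of 2726 genes, with genes whose brightest probe set had an unadjusted p below 0.05 as orange circles and the 16 with both below 0.05 in 1 direction in green. Sdhd and Malat1 lie far out at the lower left, while the 2 unlabelled circles farthest right, Gpaa1 and Brd8, have a next brightest probe set nearer to 0 (0.09 and 0.44).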

How the data were processed

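RNA of laser-dissected layer IV was hybridised to 1 Affymetrix array per mouse, with 22690 probe sets, 64 of them controls. Linear intensities were deposited by the authors, who per the submitters' processing notes used MAS5 and Affymetrix Expression Console; versions and the scaling target were not given in the sources used here. Groups follow the sample titles. Values were taken as log2(signal + 16), so fold changes of dim probe sets are understated. All 22626 other probe sets were fitted with limma 3.58.1 in R 4.3.3 (genotype as the only term, 9 arrays, eBayes with an intensity trend, 6 residual degrees of freedom), and p-values for HZ minus WT were adjusted over all of them by the Benjamini-Hochberg method. On simulated data, an adjusted p below 0.05 recovered on average 37.4% of 2-fold and 83.6% of 4-fold changes, with 4.37% of calls false. Many changes of 2-fold would thus be missed. Symbols came from the platform annotation: 20380 probe sets had 1 symbol, 691 several and 1555 none, and 20351 matched RefSeq genes of GRCm38.p6. Genes were described from the 13576 brighter probe sets (mean signal of at least 121 over 9 arrays).

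The genes and 28 lists were chosen with earlier results of these data known. Named were Gap43, the 10 genes of smallest p on each side, the 4 largest without overlap on each side, from each list the 2 with the smallest p, all measured partners of GAP-43 and cell type markers; further members of the chromatin and barrel map lists, and Cd80, were named after their values were seen. Lists were described without a test. Alternatives were other pseudocounts, filters, scalings and terms, and leaving out each array. Sex, read from Xist and Y-linked transcripts, was 2 females and 1 male in each genotype. Precision is limited by the number of arrays.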

Additional observations from a re-analysis of the deposited data

How the results depend on the processing

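The 26 genes named by p or by size kept their direction in all 520 refits, most of which could not turn it, since their HZ and WT arrays did not overlap. Gap43 ranged from -0.27 to 0.090 when 1 array was left out and turned to 0.090 without WT 1. No setting gave a probe set past the adjusted threshold except leaving out WT 2, with 2 (range 0 to 2). Counts at an unadjusted p below 0.05 were 556 higher and 296 lower with the dimmer probe sets left out, 471 and 967 with all arrays at 1 median, and 1509 and 680 with array weights. The cause was not tested, except that the filter tested fewer probe sets.

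With all arrays at 1 median, list medians moved to 0.0029 for GAP-43 partner, -0.12 for growth cone, -0.061 for barrel map, 0.073 for serotonin, -0.0098 for glutamate, 0.0061 for axon guidance, 0.012 for immediate early, -0.024 for neurotrophin, -0.077 for ion channel, -0.044 for cadherin, 0.011 for cortical transcription factor, 0.026 for endothelial, -0.25 for mitochondrial ribosomal, -0.18 for metabolic enzyme, -0.099 for chaperone, -0.051 for splicing, -0.081 for chromatin and -0.030 for cholesterol genes. Quantile normalization gave 0.042 for immediate early and 0.0053 for neurotrophin genes, and array weights gave 0.033 for GAP-43 partner genes. The mean of all probe sets of a gene gave 0.041 for endothelial, -0.029 for splicing and 0.072 for chromatin genes.

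With 1 array left out, medians ranged from -0.0096 to 0.12 for barrel map, 0.055 to 0.24 for serotonin, 0.020 to 0.23 for presynaptic, 0.0028 to 0.10 for axon guidance, -0.00060 to 0.10 for immediate early, -0.0056 to 0.13 for neurotrophin, 0.0061 to 0.15 for cortical transcription factor and -0.0084 to 0.17 for oligodendrocyte genes. They ranged from 0.029 to 0.13 for endothelial, -0.18 to -0.083 for mitochondrial ribosomal, -0.099 to -0.037 for metabolic enzyme, -0.049 to 0.011 for chaperone, -0.013 to 0.095 for splicing, -0.0085 to 0.079 for chromatin and 0.00056 to 0.10 for cholesterol genes.

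With the replicate number as a block, 855 probe sets were higher and 450 lower at an unadjusted p below 0.05, and the smallest adjusted p was 0.80. Arrays of WT and HZ with the same number deviated together with r = 0.0050, 0.062 and 0.037 over probe sets, and WT 1 and WT 3 each correlated best with another number, so the numbers were not taken as pairs. Dim probe sets spread more around 0, with 81.1% within 0.5 on the log2 scale beside 94.8% of the brighter ones, and the number of arrays limits the precision.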

Other observations

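Besides Sdhd, Malat1, Mrps9 and Ccnd1, there were 12 genes with an unadjusted limma p below 0.05 on both of their brighter probe sets in 1 direction, chosen after their values were seen. None passed the adjusted test. On the lower side, Ccn3, a secreted matricellular protein, gave 1276, 1022 and 1196 in WT and 664, 829 and 829 in HZ, with log2 changes of -0.58 and -0.50. Apcdd1, an inhibitor of Wnt signalling, was 1635, 2400 and 2392 in WT and 1622, 1449 and 1059 in HZ, and all 3 of its other probe sets were lower. Htra1, a secreted protease, was at -0.71 and -0.65 and Eml5, a microtubule-associated protein, at -0.70 and -0.77. Genes of DNA synthesis were Prim1, a primase subunit, at -0.49 and -0.51, and Dtymk, which makes thymidine diphosphate, at -0.27 and -0.56.

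On the higher side, Thra, a thyroid hormone receptor, gave 3230, 3093 and 2834 in WT and 3472, 4944 and 3671 in HZ, with log2 changes of 0.38 and 0.38. HZ 2 was the highest array, and the first value was 0.23 without it. Sbk1, a kinase of brain, was 5285, 6363 and 6135 in WT and 6705, 8082 and 7257 in HZ (0.31 and 0.50). The transporters Abcc5 and Abcg4 were at 0.42 and 0.39 and at 0.56 and 0.42, and 5 of the 6 other Abcc5 probe sets were higher. Lpcat1, an enzyme of phospholipid remodelling, was at 0.37 and 0.53 (the first 0.24 without HZ 2) and Tpm2, a tropomyosin, at 0.52 and 0.93. The second Tpm2 probe set had a mean of 98.2 in WT, below the 121 needed to be kept, and 190 in HZ. It was kept through its higher signal outside WT, so its value is partly set by that choice. Further probe sets of Eml5, Abcc5, Lpcat1 and Tpm2 included at least 1 on the other side.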
